A study of Homo sapiens with 8 samples.

Results

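The mRNAs of 10 proteins that bind AU-rich elements were followed in HEK293 lines in which expression of such a protein was switched on. The genes were TIA1, TIAL1 (which encodes TIAR), ELAVL1 (which encodes HuR), ELAVL2, ELAVL3, ELAVL4, ZFP36, ZFP36L1, ZFP36L2 and KHSRP. Members were found by gene name among the non-control probes of the array, which gave 16 of 50599 probes and 10 of 36337 gene names. HEK293 is a human embryonic kidney line, and the derivatives, called FT293, carried a tetracycline-inducible transgene at a single genomic site placed by Flp recombinase. The transgene encoded GFP alone in the control line, and GFP-HuR, GFP-TIA1 or GFP-TIAR in the other lines, which are called here the GFP, HuR, TIA1 and TIAR lines. RNA was taken on the third day of tetracycline, and each line had 2 replicate arrays, so that precision is limited by this number. All lines received tetracycline and all carried a GFP transgene, each line was an isogenic population from a single integration, and fusion mRNA and endogenous mRNA could be told apart only where a probe lay outside the transgene. A label of TIA1 array 2 reads GFP-TIA2 where its title reads GFP-TIA1, and the title was followed. The labels did not say whether replicates came from separate cultures, so that p-values measure only the spread between these arrays, which may be technical.

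AU-rich elements are stretches of A and U in the 3′ untranslated regions of many short-lived mRNAs, such as those of cytokines, oncogenes and cell cycle genes. The ZFP36 proteins and KHSRP recruit deadenylases and the exosome to such mRNAs and speed their decay, the ELAVL proteins generally protect them, and TIA1 and TIAR mainly hold back their translation and gather in stress granules. Many of these proteins also bind the transcripts of their own and each other's genes, and TIA1 and TIAR regulate splicing from U-rich sequence next to weak 5′ splice sites. The design therefore asked how the mRNA of each regulator stood in cells that made more TIA1 or TIAR than in cells that made more HuR, or GFP alone.

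All 8 arrays lay on 1 slide with 1 scan time. GFP array 1 stood apart, with 86.1% of probes well above background against 53.3% to 58.6% on the other arrays, a mean local background of 83.2 against 35.7 to 41.5, and 15.8% of probes differing 2-fold or more from GFP array 2, against 0.455% to 1.45% between the arrays of the other lines. Differences from the GFP line are therefore given with and without that array. The GFP and TIA1 arrays lay in row 1 of the slide and the HuR and TIAR arrays in row 2, so that only TIAR against HuR and TIA1 against GFP were compared within a row. In the comparisons of TIA1 with HuR, TIAR with TIA1, TIAR with GFP and HuR with GFP, slide row and line cannot be told apart. Of the markers of HEK293 cells, VIM, KRT8, KRT18, NEFL, ENO2, LHX1 and 1 of 2 PAX2 probes were well above background on all 8 arrays and NEFM on 7. Markers of other cells were mixed: UMOD, 1 of 5 PTPRC probes and 1 of 2 CD247 probes were well above background on all 8 arrays, ALB and NPHS1 on 6, CD3E on 2, 1 of 3 CD2 probes on 5, and the remaining probes of CD2, CD247 and PTPRC and those of TTR, AQP2 and SLC12A1 on 0 to 3.

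A single probe among the 16 crossed an intron. It belongs to TIAL1 (probe A_23_P161488, NM_001033925) and lies on the minus strand of chr10:121336676-121336982 of hg19, a span that holds 247 intron bases besides the probe's 60. Its last 15 bases are the first 15 of a primer that the study used for TIAR mRNA and named for exons 10 to 12. Both are shown, 5′ to 3′, because this overlap places the probe in the mature TIAR transcript. The shared bases are in capitals.
TIAL1 probe: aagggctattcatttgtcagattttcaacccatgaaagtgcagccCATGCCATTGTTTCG
TIAR sense primer: CATGCCATTGTTTCGgtg
None of the other 15 probes shared 10 or more bases with any of the study's 16 TIA1 and TIAR primers. The second TIAL1 probe (A_33_P3293869, assigned by the array design to ENST00000369086) lies at chr10:121341245-121341304 and has a stop codon in every reading frame of its sense strand, whereas the first has 2 frames without one. Both TIA1 probes (NM_022173) lie on chromosome 2, A_23_P90845 at chr2:70439756-70439815 and A_24_P405430 at chr2:70436698-70436757. Their distance of 3058 bases is the same in the transcript and in the genome, so that no intron lies between them. The files did not give the ends of the coding sequence. Whether the TIA1 probes, the ELAVL1 probe or TIAL1 probe A_23_P161488 see a transgene was not tested. The TIA1 and ELAVL1 probes therefore say nothing for or against the labels of the TIA1 and HuR lines.

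Of the 14 member probes that were tested, 2 were called different between the TIA1 and HuR lines, 3 between the TIAR and HuR lines and 1 between the TIAR and TIA1 lines. Called here means a difference of at least 2-fold, or 1 on the log2 scale, at an adjusted p below 0.05 in limma. The background of such calls among all probes tested was 13.4%, 10.1% and 2.35%, respectively, so the members' share of calls was close to the background when TIA1 was compared with HuR. At the adjusted p alone, 8, 6 and 1 of the 14 passed, against 41.5%, 30.7% and 3.48% of all probes. Probes for ELAVL3 and ELAVL4 were not tested, since neither was well above background on both arrays of any line. The median log2 difference of the 14 was -0.08, 0.11 and -0.09 in the same order, against 0.08, 0.05 and -0.02 over all probes.

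The TIAL1 probe in the mature transcript rose in the TIAR line and was lower in the TIA1 line. Whether its signal in the TIAR line includes mRNA of the GFP-TIAR transgene was not tested, so the rise cannot be assigned to endogenous TIAL1 mRNA. Its processed signal, an intensity before scaling, was 40750 and 41387 on the TIAR arrays, 8618 and 9578 on the HuR arrays, 6731 and 7405 on the GFP arrays, and 3973 and 4018 on the TIA1 arrays. No line overlapped the TIAR line or the TIA1 line, and the TIA1 line held the lowest signals. On the scaled log2 signal, in which each array's 75th percentile is 0, the levels were 4.93 ± 0.08 (SD, n = 2) in the TIAR line, 2.49 ± 0.04 in the HuR line, 2.26 ± 0.30 in the GFP line and 1.68 ± 0.08 in the TIA1 line. The TIAR line exceeded the HuR line by 2.44 (SE 0.10, limma adjusted p = 0.0037), or 5.41-fold, which was rank 286 among the positive differences of 29049 probes. It exceeded the TIA1 line by 3.24 (SE 0.12, adjusted p = 0.0076), or 9.46-fold, at rank 34 of 28011 probes. Leaving out any of the 4 arrays ended the call against TIA1, while the difference stayed between 3.19 and 3.30. Such fits rest on a single array of a line, so the lost call is not particular to this probe.

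Signals of the same TIAL1 probe were 1.75-fold lower in the TIA1 line than in the HuR line, a log2 difference of -0.81 (SE 0.10, 95% interval -1.07 to -0.54, limma adjusted p = 0.0072), which falls short of the 2-fold limit. The second TIAL1 probe was dim. Its intensities were 62 and 76 in the TIA1 line and 80 and 91 in the TIAR line, against 132 and 136 in the HuR line and 103 and 149 in the GFP line. In unscaled intensity the TIA lines lay below both other lines at this probe, and the TIAR line did not show the rise seen at the first probe. Its log2 difference from the HuR line was -0.58 (SE 0.16, adjusted p = 0.047) in the TIA1 line and -0.39 (SE 0.13, adjusted p = 0.089) in the TIAR line. With normexp background correction these differences shrank to -0.10 and -0.08. The differences from the GFP line, -0.60 in the TIA1 line and -0.41 in the TIAR line, changed sign in 3 of 16 alternatives, to 0.64 and 0.78 with quantile normalization, so that the order of the lines at this probe depended on the scaling. In a bulk sample, fewer cells with an mRNA and less of it per cell cannot be told apart.

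The signal of both TIA1 probes was lower in both TIA lines. Whether it includes mRNA of the GFP-TIA1 transgene in the TIA1 line was not tested. At A_24_P405430 the intensities were 669 and 604 in the TIA1 line and 410 and 509 in the TIAR line, whereas the HuR line gave 1527 and 1739 and the GFP line 1574 and 1509. The TIA lines did not overlap the HuR and GFP lines, and the line that carried the GFP-TIA1 transgene did not have the highest signal. Scaled log2 levels were -0.97 ± 0.04 in the TIA1 line, -1.56 ± 0.28 in the TIAR line, 0.01 ± 0.07 in the HuR line and 0.06 ± 0.16 in the GFP line (SD, n = 2 each). TIA1 mRNA fell in the TIAR line relative to the HuR line, with a log2 difference of -1.58 (SE 0.17, limma adjusted p = 0.0088), or 2.98-fold, which was rank 225 among the negative differences of 29049 probes. In the TIA1 line the difference of -0.98 (SE 0.10, adjusted p = 0.0047) passed the test but missed the 2-fold limit by little. Between the TIA lines the difference of -0.60 (95% interval -1.05 to -0.14) did not pass (limma adjusted p = 0.14).

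The second TIA1 probe, A_23_P90845, gave smaller differences in the same direction. Its intensities were 536 and 629 in the TIA1 line, 586 and 652 in the TIAR line, 1029 and 1133 in the HuR line, and 1301 and 801 in the GFP line. Relative to the HuR line the log2 difference was -0.52 (SE 0.14, limma adjusted p = 0.048) in the TIA1 line and -0.55 (SE 0.13, adjusted p = 0.04) in the TIAR line. The TIA lines differed by -0.03 at this probe, with a 95% interval of -0.49 to 0.43. At both TIA1 probes the differences from the HuR line kept their sign with other background correction, other scaling, the authors' values and arrays left out. The other alternative settings changed the filter, the fit or the test and left these differences as they were, so they could not change the sign.

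**Figure D1:**
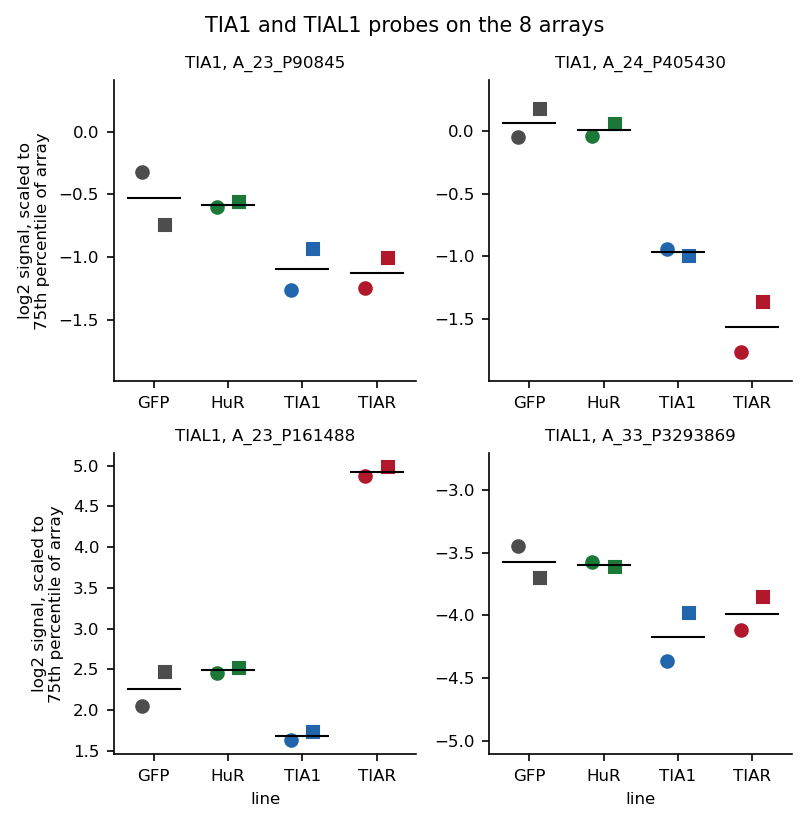
Scaled log2 signal (vertical axis, log2 units relative to the 75th percentile of each array) of the TIA1 and TIAL1 probes in the GFP, HuR, TIA1 and TIAR lines (horizontal axis). Circles are replicate 1, squares replicate 2 and black lines the mean of 2 arrays, and each panel has its own range; both TIA1 probes and TIAL1 probe A_33_P3293869 lie lower in the TIA1 and TIAR lines than in the HuR line, while TIAL1 probe A_23_P161488 reaches 4.93 in the TIAR line.

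ELAVL1 encodes HuR, the ubiquitous member of its family, which stabilizes many mRNAs with AU-rich elements. Its probe (A_23_P388681, NM_001419, chr19:8028279-8028338) gave 1967 and 2233 in the HuR line, 3454 and 2523 in the GFP line, 1056 and 1655 in the TIA1 line, and 1636 and 2312 in the TIAR line. The highest signals came from the GFP line and not from the line that carried GFP-HuR. Scaled log2 levels were 0.37 ± 0.06 in the HuR line, 1.00 ± 0.12 in the GFP line, 0.09 ± 0.52 in the TIA1 line and 0.53 ± 0.42 in the TIAR line (SD, n = 2 each). No difference passed in limma: it was -0.29 (95% interval -1.02 to 0.44, adjusted p = 0.43) for TIA1 against HuR, 0.15 (-0.46 to 0.76, adjusted p = 0.64) for TIAR against HuR, and -0.63 (-1.10 to -0.15, adjusted p = 0.23) for HuR against GFP, or -0.54 (adjusted p = 0.39) without GFP array 1 in a fit of the other 7 arrays. The interval for TIA1 against HuR includes a 2-fold decrease, and this difference turned to 0.08 without TIA1 array 1.

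ELAVL2, ELAVL3 and ELAVL4 encode the neuronal relatives of HuR. ELAVL2 (A_23_P94571, NM_004432, chr9:23692291-23692350) was the ELAVL gene that differed, and it was lowest in the HuR line. Its intensities were 215 and 254 in the HuR line, 405 and 446 in the TIA1 line, 325 and 336 in the TIAR line, and 601 and 320 in the GFP line. No array of another line overlapped the HuR line. The TIA1 line exceeded the HuR line by 1.24 on the log2 scale (SE 0.13, limma adjusted p = 0.0054), or 2.36-fold, and the TIAR line by 0.76 (SE 0.11, adjusted p = 0.016), or 1.69-fold. The TIA lines differed by -0.48 (95% interval -0.85 to -0.11), which did not pass (limma adjusted p = 0.14). The size of the ELAVL2 difference between TIA1 and HuR depended on background and scaling, since it was 0.80 (adjusted p = 0.0027) in the authors' processed values and 0.84 after normexp and quantile normalization, both short of 2-fold.

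ELAVL3 (A_23_P319626, chr19:11563097-11563156) was not well above background on any array, with intensities from 5.5 to 16.2. ELAVL4 (A_24_P188447, chr1:50666551-50666610) was well above background on GFP array 1 alone, at 267, while the other 7 arrays gave 5.2 to 9.4. No fold change is given for either gene.

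KHSRP encodes KSRP, which binds AU-rich elements and promotes decay and the processing of some microRNA precursors. Its bright probe (A_23_P16157, chr19:6413855-6413914) ranged from 119884 to 175499 over the 8 arrays with none saturated, and no difference passed between the TIA1, TIAR and HuR lines: the log2 difference from the HuR line was 0.15 (95% interval -0.16 to 0.46) in the TIA1 line and -0.14 (-0.47 to 0.18) in the TIAR line. At the second probe (A_24_P134235, chr19:6416535-6416594) the intensities were 1184 and 1248 in the HuR line, 694 and 788 in the TIA1 line, 720 and 734 in the TIAR line and 1026 and 934 in the GFP line. The TIA lines did not overlap the other lines in unscaled intensity, although TIA1 array 2 overlapped the GFP line after scaling. The scaled difference from the HuR line was -0.48 (SE 0.10, limma adjusted p = 0.031) in the TIAR line and -0.34 (SE 0.13, adjusted p = 0.1) in the TIA1 line. The probes thus gave differences of unlike size for the TIAR line and of opposite sign for the TIA1 line.

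**Figure D2:**
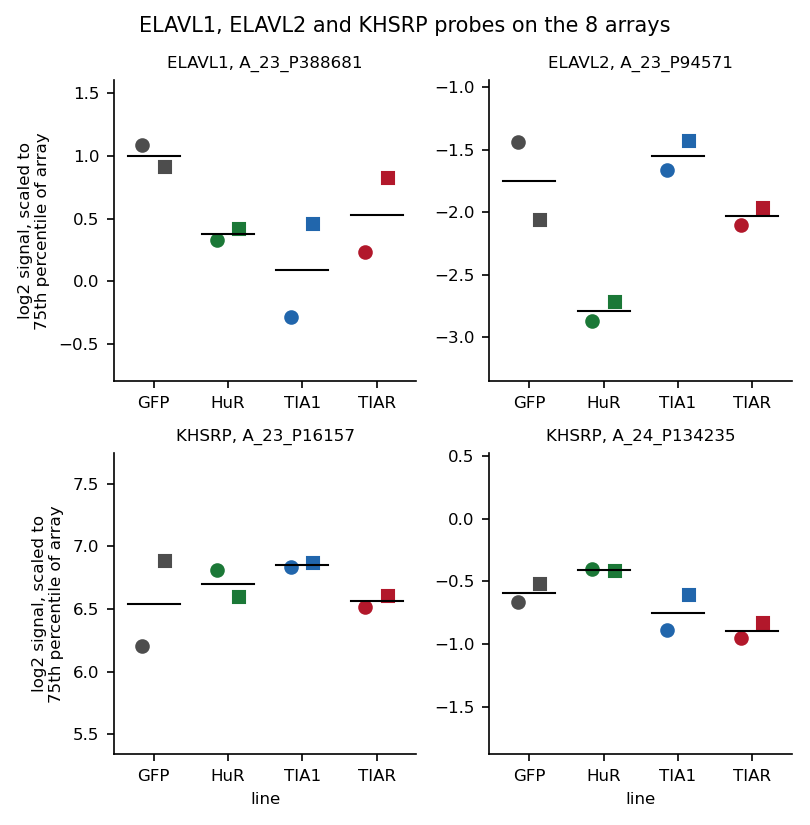
Scaled log2 signal (vertical axis, log2 units relative to the 75th percentile of each array) of the ELAVL1, ELAVL2 and KHSRP probes in the 4 lines (horizontal axis), with circles for replicate 1, squares for replicate 2 and black lines for the mean of 2 arrays. ELAVL2 is lowest in the HuR line at -2.79, ELAVL1 is highest in the GFP line at 1.00, and each panel has its own range.

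ZFP36, which encodes tristetraprolin, an inducible factor that drives the decay of cytokine and immediate early mRNAs, rose in both TIA lines. Its probe (A_23_P39237, NM_003407, chr19:39899758-39899817) gave 7717 and 6675 in the TIA1 line and 8990 and 8498 in the TIAR line, against 4031 and 3813 in the HuR line and 4187 and 3461 in the GFP line. The HuR and GFP lines overlapped each other and lay below both TIA lines. Scaled log2 levels were 2.53 ± 0.08, 2.69 ± 0.0079, 1.28 ± 0.12 and 1.37 ± 0.0045 in the TIA1, TIAR, HuR and GFP lines (SD, n = 2 each). Relative to the HuR line ZFP36 was higher by 1.25 (SE 0.11, limma adjusted p = 0.0042), or 2.38-fold, in the TIA1 line and by 1.42 (SE 0.11, adjusted p = 0.0055), or 2.67-fold, in the TIAR line. The ranks of these differences among the positive ones were 1639 of 28712 and 1112 of 29049 probes. The TIA lines differed by 0.17 (95% interval -0.14 to 0.47, adjusted p = 0.44), and the HuR line differed from the GFP line by -0.09 (-0.56 to 0.38, adjusted p = 0.77), or -0.09 (adjusted p = 0.68) in the 7-array fit without GFP array 1.

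ZFP36L1 and ZFP36L2 encode relatives of tristetraprolin with the same pair of zinc fingers. ZFP36L1 had 4 probes on the minus strand of chromosome 14, of which A_23_P99540 and A_33_P3417865 belong to NM_004926 and lie 878 bases apart with no intron between them. At A_33_P3417865 the intensities were 5487 and 5541 in the TIA1 line, 4724 and 5061 in the TIAR line, 4727 and 4258 in the HuR line and 4316 and 4378 in the GFP line. The TIA1 line was highest, and the scaled difference from the HuR line was 0.68 (SE 0.13, limma adjusted p = 0.019), or 1.60-fold. A_23_P99540 gave 0.48 (SE 0.11, adjusted p = 0.028) in the same comparison. In the TIAR line the differences were 0.38 (adjusted p = 0.11) and 0.33 (adjusted p = 0.079), neither of which passed. Between the TIA lines they were -0.29 (95% interval -0.64 to 0.05) and -0.15 (-0.44 to 0.15).

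Both other ZFP36L1 probes, A_23_P406071 and A_33_P3355717, are assigned to another transcript, ENST00000408913. They lie at higher chromosome coordinates than the NM_004926 probes, with 6523 bases between the probes of the 2 transcripts. A_23_P406071 and A_33_P3355717 disagreed with each other. For TIA1 against HuR the log2 difference was -0.41 (SE 0.16, limma adjusted p = 0.11) at A_23_P406071, which turned to 0.01 after normexp background correction, and 0.43 (SE 0.13, adjusted p = 0.061) at A_33_P3355717. ZFP36L2 (A_23_P101960, NM_006887, chr2:43451156-43451215) had 10 spots on each array, which were averaged after outlier spots were dropped. Its intensity was 1439 and 1884 in the GFP line, 2704 and 3219 in the HuR line, 2474 and 2500 in the TIA1 line and 2706 and 2764 in the TIAR line. The GFP line was lowest, and the HuR, TIA1 and TIAR lines lay close together, at scaled log2 levels of 0.87 ± 0.11, 1.00 ± 0.08 and 1.02 ± 0.09 (SD, n = 2 each). ZFP36L2 differed from the HuR line by 0.13 (95% interval -0.17 to 0.43) in the TIA1 line and by 0.15 (-0.16 to 0.46) in the TIAR line, so that a 2-fold change lies outside both intervals.

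**Figure D3:**
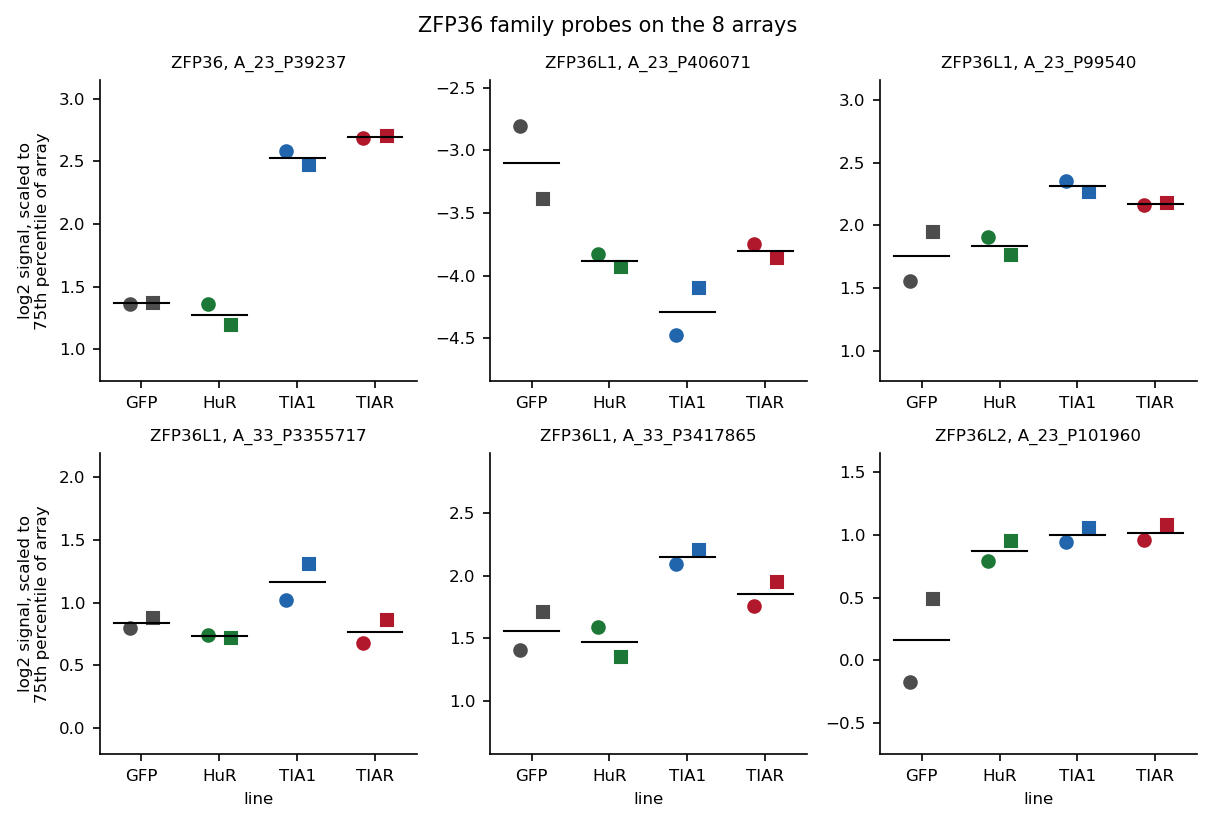
Scaled log2 signal (vertical axis, log2 units relative to the 75th percentile of each array) of the ZFP36, ZFP36L1 and ZFP36L2 probes in the 4 lines (horizontal axis), with circles for replicate 1, squares for replicate 2 and black lines for the mean of 2 arrays. ZFP36 stands at 2.53 and 2.69 in the TIA1 and TIAR lines against 1.28 and 1.37 in the HuR and GFP lines, the 4 ZFP36L1 probes do not share a pattern, and ZFP36L2 is lowest in the GFP line.

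The log2 differences of all 14 probes, with their intervals, are set side by side in the plot of differences between lines. The comparisons of TIA1 and of TIAR with HuR share the HuR arrays. The TIAR against HuR calls depended on those arrays: none of the 3 was made without HuR array 1, when limma called 0 of 29967 probes, and 1, TIAL1, was made without HuR array 2, when it called 612 of 29612. For TIA1 against HuR, ZFP36 stayed between 1.16 and 1.34 and ELAVL2 between 1.12 and 1.35 when any array was left out, although not every call was kept. Such fits rest on a single array of a line, so their calls are not read as a result about the members.

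**Figure D4:**
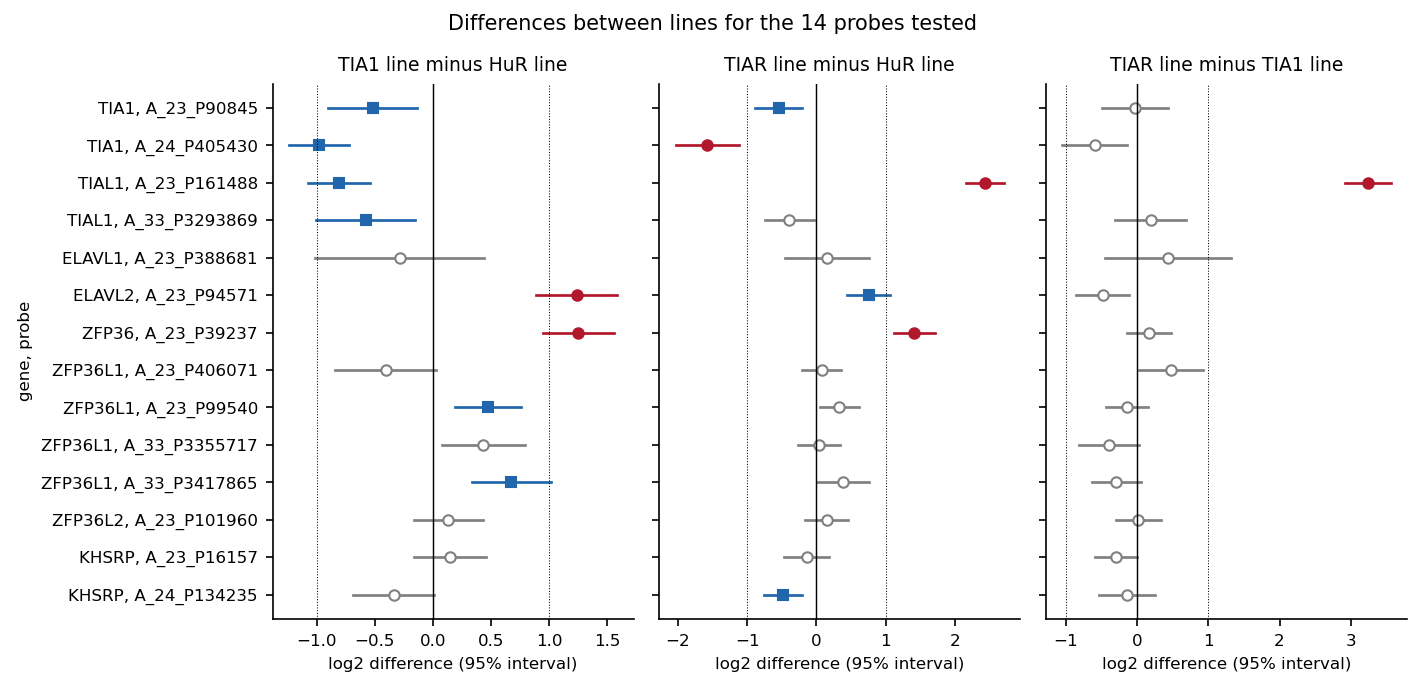
Log2 differences between lines (horizontal axis, log2 units, points with unadjusted 95% intervals) for the 14 member probes tested (vertical axis). Filled red circles passed 2-fold and the adjusted p, blue squares passed the adjusted p alone, open grey circles passed neither, and dotted lines mark 2-fold; ZFP36 is called against HuR in both TIA lines, at 1.25 and 1.42, and TIAL1 probe A_23_P161488 is the only call between the TIA lines, at 3.24.

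Against the GFP line, no member was called in the fits on the 4 arrays of each comparison. Limma called 0 of 27994 probes for TIA1, 0 of 28537 for TIAR and 0 of 28824 for HuR, a background of 0% each, while 5, 4 and 3 of the 14 member probes and 6055, 4670 and 4957 of all probes had an unadjusted p below 0.05. The methods' t-test, paired by replicate number on 2 differences per probe, called 0 probes after Benjamini-Hochberg adjustment. It called 0 in every comparison, also for TIA1 against HuR, where limma called 3848 probes, so its 0 against GFP says nothing about the GFP line. With an unadjusted p below 0.05 and 2-fold it called 1, 3 and 0 members, beside 719, 511 and 431 of all probes. With all 8 arrays in 1 fit, which keeps both GFP arrays and pools the spread over the lines, limma called 3 members for TIA1, 3 for TIAR and 0 for HuR, against a background of 9.03%, 5.93% and 3.94% of all probes. With GFP array 1 left out and the other 7 arrays in 1 fit, an alternative chosen after the data were seen in which the single GFP array is assumed to vary like the other lines, limma called 2 of 14 members for TIA1, 3 for TIAR and 0 for HuR, against a background of 12.4%, 10.1% and 6.25% of all probes. This fit differs from the 4-array fits both in the array left out and in pooling all lines.

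Both pooled fits called ZFP36 and TIA1 probe A_24_P405430 in both TIA lines and TIAL1 probe A_23_P161488 in the TIAR line, and the 8-array fit also called ZFP36L1 probe A_23_P406071 in the TIA1 line. Without GFP array 1, ZFP36 was higher than in the GFP line by 1.16 (SE 0.13, limma adjusted p = 0.0043) in the TIA1 line and 1.32 (SE 0.13, adjusted p = 0.0044) in the TIAR line. With both GFP arrays the differences were 1.16 and 1.33, with limma adjusted p = 0.0054 and 0.0071 in the 8-array fit and 0.11 and 0.18 in the 4-array fits. TIA1 probe A_24_P405430 stood without GFP array 1 at -1.14 (SE 0.19, adjusted p = 0.012) in the TIA1 line and at -1.74 (SE 0.19, adjusted p = 0.0055) in the TIAR line. With both arrays it stood at -1.03 and -1.63, with limma adjusted p = 0.016 and 0.0092 in the 8-array fit and 0.12 and 0.18 in the 4-array fits. TIAL1 probe A_23_P161488 was higher by 2.46 (SE 0.12, adjusted p = 0.0011) in the TIAR line without GFP array 1, and by 2.67 with both arrays (adjusted p = 0.003 in the 8-array fit and 0.14 in the 4-array fit).

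Short of 2-fold, 4 probes passed the adjusted p in the 7-array fit without GFP array 1, and their values with both arrays are from the 4-array fits unless another is named. ELAVL2 was lower in the HuR line than in the GFP line, at -0.72 (SE 0.16, limma adjusted p = 0.044), against -1.04 (adjusted p = 0.24) with both arrays. TIAL1 probe A_23_P161488 stood at -0.78 (SE 0.12, adjusted p = 0.0099) in the TIA1 line, against -0.57 (adjusted p = 0.27) with both arrays. ZFP36L2 was 0.51 (adjusted p = 0.043) and 0.52 (adjusted p = 0.046) above GFP in the TIA1 and TIAR lines, and gave 0.84 and 0.86 with both arrays (adjusted p = 0.23 and 0.3). ZFP36L1 probe A_23_P406071 stood at -0.89 (adjusted p = 0.022) in the TIA1 line, against -1.19 with both arrays (adjusted p = 0.16, or 0.023 in the 8-array fit).

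**Figure D5:**
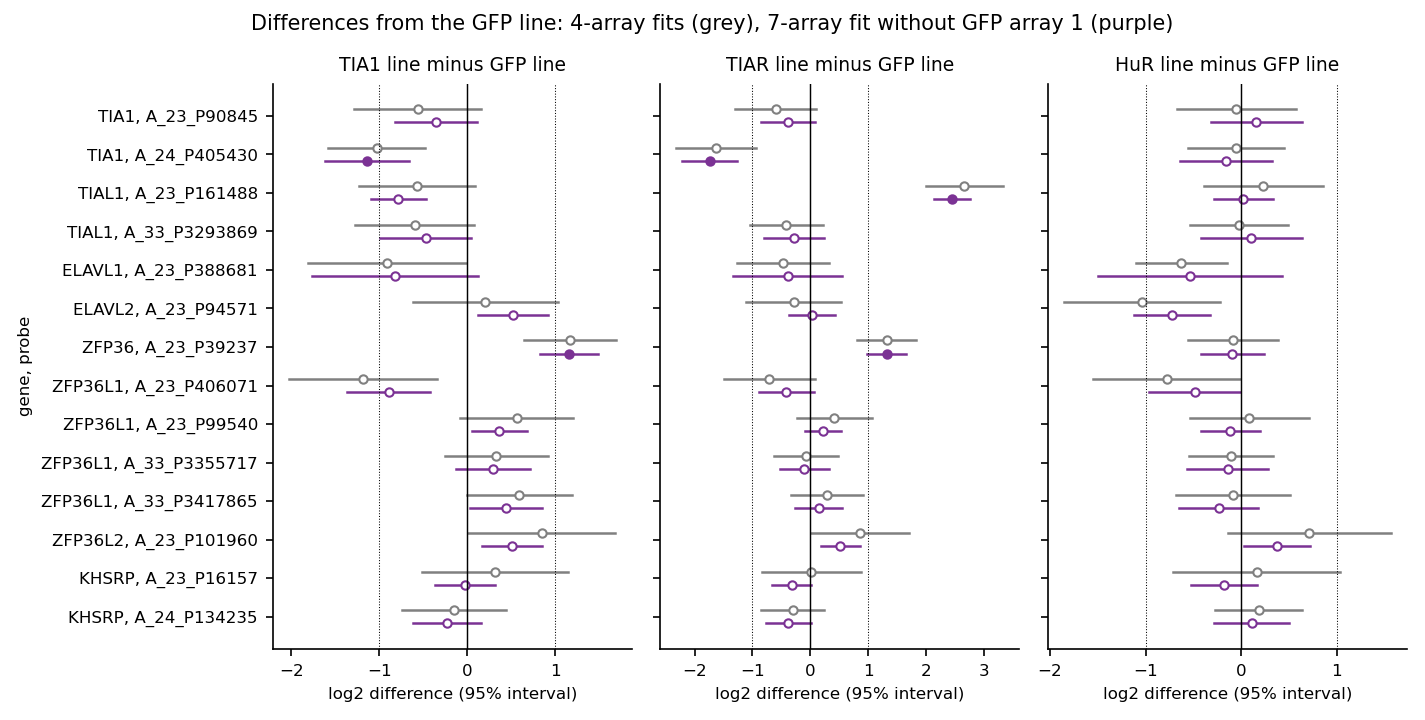
Log2 differences of the TIA1, TIAR and HuR lines from the GFP line (horizontal axis, log2 units, points with unadjusted 95% intervals) for the 14 member probes tested (vertical axis), in grey from the 4-array fits with both GFP arrays and in purple from the 7-array fit without GFP array 1. Filled points passed 2-fold and the adjusted p, and dotted lines mark 2-fold; only purple points are filled, those of TIA1 probe A_24_P405430 and ZFP36 in both TIA lines and of TIAL1 probe A_23_P161488 in the TIAR line.

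Of 35 other tested genes for proteins that bind AU-rich or U-rich sequence, 1 rose and 1 fell in the TIA1 line relative to the HuR line, and 0 rose and 2 fell in the TIAR line, while the median log2 difference of their probes was -0.03 and -0.07 against 0.08 and 0.05 over all probes. These calls were 3.23% and 4.84% of the list's probes, beside 13.4% and 10.1% of all probes. At the adjusted p alone, 9 genes were higher and 9 lower in the TIA1 line, and 2 higher and 10 lower in the TIAR line, or 35.5% and 21.0% of the probes beside 41.5% and 30.7% of all probes. HNRPDL, a relative of the decay factor AUF1, fell by 1.34 (SE 0.17, limma adjusted p = 0.0081) in the TIA1 line and by 1.63 (SE 0.21, adjusted p = 0.012) in the TIAR line at probe A_23_P213153, and its other probe gave -0.76 and -1.04. The GFP arrays gave 3.28 and 3.51 at the first probe, near the 3.47 and 3.88 of the HuR arrays. At the other probe they gave 1.26 and 1.48, close to the 1.35 and 1.22 of the TIA1 arrays and below the 1.99 and 2.10 of the HuR arrays. PTBP2, the neuronal polypyrimidine tract-binding protein, rose by 1.21 (SE 0.15, limma adjusted p = 0.0071) in the TIA1 line. Its GFP arrays, at 1.96 and 2.25, lay between the HuR arrays, at 1.35 and 1.42, and the TIA1 arrays, at 2.76 and 2.42. CELF1, a GU-rich element binder, fell by 1.15 (SE 0.09, adjusted p = 0.0058) in the TIAR line at 1 probe, and its other probe gave -0.06. At the first CELF1 probe the scaled log2 signals were 0.94 and 0.93 on the HuR arrays, -0.71 and -0.43 on the GFP arrays, -0.24 and -0.19 on the TIAR arrays and -0.05 and -0.02 on the TIA1 arrays, so that the HuR line was the one apart.

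Another list held partners and modifiers of the member proteins, such as deadenylases, exosome subunits, kinases of the p38 pathway and nuclear transport receptors. Limma called 0 of its 33 genes in either comparison with HuR, beside calls of 13.4% and 10.1% of all probes. An unadjusted limma p below 0.05 was reached by 15049 of 28712 and 13198 of 29049 of all probes. Of the list's genes, 12 and 13 had such a probe. At the adjusted p alone, 3 were higher and 6 lower in the TIA1 line, and 0 higher and 7 lower in the TIAR line, or 17.3% and 13.5% of the list's probes beside 41.5% and 30.7% of all probes. The median log2 differences of their probes were -0.04 and -0.13.

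The last list held mRNAs known to carry AU-rich elements or to be bound by the member proteins. Relative to the HuR line, 6 of 35 tested rose and 3 fell in the TIA1 line, and 5 of 36 rose and 3 fell in the TIAR line, with median differences of 0.05 and 0.05. The called probes were 16.7% and 14.5% of the list's, beside 13.4% and 10.1% of all probes. At the adjusted p alone, 12 genes were higher and 12 lower in the TIA1 line, and 8 higher and 9 lower in the TIAR line. The probes that passed were 53.7% and 40% of the list's, beside 41.5% and 30.7% of all probes. SNAI1, a transcription factor of epithelial-mesenchymal transition, rose by 2.02 (SE 0.12, limma adjusted p = 0.0026) and 1.67 (SE 0.10, adjusted p = 0.0045). Its scaled log2 signals were 1.00 and 0.78 on the TIA1 arrays and 0.50 and 0.57 on the TIAR arrays. The GFP arrays, at -0.24 and -0.18, lay between these and the HuR arrays, at -1.07 and -1.20. CCND1, which encodes cyclin D1, fell by 1.83 (SE 0.12, adjusted p = 0.0026) and 1.64 (SE 0.11, adjusted p = 0.0049). CCND1 signals were 0.75 and 0.91 on the HuR arrays but -0.94 and -0.84 on the GFP arrays, close to the -1.08 and -0.91 of the TIA1 line and the -0.84 and -0.77 of the TIAR line, so that the HuR line was the one apart.

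CCL2, a chemokine that attracts monocytes, was not well above background in the HuR line and was at least 15.4-fold higher in the TIA1 line (limma adjusted p = 0.0018) and at least 15.1-fold higher in the TIAR line (adjusted p = 0.0029). PTGS2, which encodes an inducible cyclooxygenase, was not well above background in the TIA1 and TIAR lines and was at least 2.55-fold (adjusted p = 0.0038) and 2.76-fold (adjusted p = 0.0072) higher in the HuR line. Its scaled log2 signals were -3.98 and -4.19 on the HuR arrays and -5.64 and -5.86 on the GFP arrays. The TIA1 arrays gave -5.69 and -5.95 and the TIAR arrays -5.54 and -5.83, so that the HuR line was the one apart. Each bound compares the mean of the brighter line with a floor for the dimmer one, in which each array contributes the dim probe's signal or the faintest signal that any probe had well above background, whichever is higher. In none of the 3 lists did limma call a gene between the TIA lines, nor against the GFP line in the 4-array fits, where 2.35% and 0% of all probes were called. Per list 6 to 13 and 4 to 16 genes, respectively, had a probe with an unadjusted limma p below 0.05. Over all probes this held for 6662 of 28011 between the TIA lines. Against GFP it held for 6055 of 27994 in the TIA1 line, 4670 of 28537 in the TIAR line and 4957 of 28824 in the HuR line.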

How the data were processed

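RNA of 8 samples (4 HEK293-derived lines, 2 arrays each) was hybridised to 1-colour Agilent arrays. The deposited intensity is Agilent's processed signal, background-subtracted by the authors' scanner software. The authors' series table holds log2 values, for which the submitters' processing notes name limma, with background correction and scaling not given in the sources used here. It served as an alternative. Depth does not apply, and the number of arrays limits the precision. In R 4.3.3, log2 signals were centred on each array's 75th percentile, outlier spots dropped and spots averaged. A probe was tested where 1 or more lines had it well above background on both of their arrays, with limma 3.58.1 fitted to the 4 arrays of each comparison, and p-values adjusted by Benjamini-Hochberg over all probes. Calls needed 2-fold and an adjusted p below 0.05. The script was tested on simulated data. All 10 symbols, and the 13 RefSeq accessions of the probes, matched RefSeq (GRCh38.p14), while probe coordinates are those of hg19 in the files. Every member probe is named, and of each list at most the 4 called genes with the largest change. Members and lists were chosen with earlier results of these data known. Alternatives covered background correction, scaling, filters, arrays in the fit, array weights, a replicate block, the methods' t-test and leaving out arrays.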

Additional observations from a re-analysis of the deposited data

How the results depend on the processing

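Of 1344 alternative values of the member differences, 1291 kept their status as called or not called, 32 gained a call and 21 lost one. Only 96 of the 1344 belong to the 6 differences called in the main setting, and the 21 losses are among those 96. Of the values uncalled in both settings, 73 changed sign. None of the 6 called differences changed sign, although the settings that alter only the filter, the fit or the test could not change it. For TIA1 against HuR the 2 calls became 1 with normexp and quantile normalization, 1 with the authors' values and 0 with the methods' t-test after Benjamini-Hochberg, and 1 to 3 when an array was left out. For TIAR against HuR the 3 calls became 0 with that t-test and 0 to 3 when an array was left out. For TIAR against TIA1 the single call became 0 without the filter on dim probes, where limma called 0 of all 50493 probes. It became 0 with a replicate block and 0 with that t-test. The call was also lost when any array was left out, in fits that rest on a single array of a line, while the difference stayed between 3.19 and 3.30. Against GFP the 0 calls became, for TIA1, 3 with all 8 arrays in 1 fit, 1 with the unadjusted t-test, 2 with 7 arrays and 0 to 4 when an array was left out, the 4 being without GFP array 2. For TIAR they became 3 with all 8 arrays in 1 fit, 1 with array weights, beside 146 of 28510 of all probes, and 3 with the unadjusted t-test. Fits with a single GFP array also called members for TIAR, and for HuR where GFP array 2 was left out. The cause of these changes was not tested, except that the fits without an array hold fewer samples. The highest counts against GFP, 4, 5 and 4 for TIA1, TIAR and HuR, all came without GFP array 2. The GFP line then rested on GFP array 1 alone, the array that stood apart. In those fits the median log2 difference over all probes tested was -0.68, -0.64 and -0.77 in the same order. The shift held for the whole array, so these counts are not particular to the members. After Benjamini-Hochberg adjustment the methods' t-test, paired by replicate number, called 0 of all probes in every comparison, so its 0 calls are not particular to the members. Replicate numbers were not shown to pair the arrays, with correlations of replicate deviations between lines from -0.09 to 0.18; the replicate block made 0 calls among all probes for TIAR against TIA1, against 658 without it. Over all probes, calls for TIA1 against HuR fell from 3848 to 2201 with normexp and 1697 with the authors' values, and for TIAR against HuR from 2924 to 1594 and 1263. Quantile normalization moved the share of higher calls from 63.4% to 52.9% and from 70.1% to 56.1%, and the median of all probes for TIA1 against GFP from 0.01 to 0.24. With 2 arrays a line, the interval of a noisy probe could include a 2-fold difference. For ELAVL1 in TIA1 against HuR it ran from -1.02 to 0.44 on the log2 scale. No difference is given for dim probes such as ELAVL3.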
